A study of Mus musculus with 4 samples.

Results

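The Meis and Meox homeobox genes were examined for open chromatin in endothelial cells of the mouse lung, the cells that line blood vessels, from lists of ATAC-seq peaks. The members were Meis1, Meis2, Meis3, Meox1 and Meox2. Every peak that overlapped the mm10 span of one of these genes, or the 50 kb on either side, was taken. Peaks of the 4 libraries that overlapped by at least 1 bp were joined into merged regions, which gave 103 regions at the 5 genes, of 113056 regions in all. The family was selected on the same peak lists, in which Meis2 stood out by its number of regions found in both knockout lists and neither wild-type list. The counts of regions listed in one genotype are therefore a description and carry no test.

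The cells were sorted by flow cytometry, and the comparison was between 2 Dnmt3a knockout (KO) libraries and 2 wild-type (WT) libraries, all of lung. ATAC-seq marks open chromatin by the insertion of sequencing adapters with a transposase. The labels gave no age, sex or strain, no Cre driver, and no statement on whether libraries of a genotype came from separate mice. Dnmt3a encodes an enzyme that places new methyl groups on cytosines of CpG sites, and the study asked how its loss affects endothelial enhancers.

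MEIS proteins are homeodomain transcription factors of the TALE class, which bind DNA together with PBX and HOX proteins. In mouse embryos Meis1 is needed for the formation of blood stem cells and for normal small vessels. Meox1 and Meox2 encode another kind of homeodomain factor, known from somite and muscle development, and Meox2 is also known as a gene of vascular endothelium that restrains the growth of endothelial cells.

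The lists held 85091 and 100879 peaks in KO replicates 1 and 2, against 101442 and 97627 peaks in WT replicates 1 and 2, on chromosomes 1 to 19, X and Y. They gave position and width only, so read depth was unknown, and a region missing from a list was not shown to be closed. In pooled cells, opening in more cells and more opening per cell cannot be told apart. Peak positions did not show the deleted part of Dnmt3a, so the genotypes rest on the labels. The KO lists shared 77.1% of the regions that either of them held, and the WT lists shared 85.6%. Of 5 genes of the Y chromosome, 4 had a peak in KO replicate 1 and 0 in KO replicate 2, against 3 and 4 in the WT libraries. The KO libraries thus differed from each other at these genes, and the part of this in the results below was not tested. All 10 pan-endothelial marker genes, such as Cdh5 and Pecam1, had a peak at either end of the gene, up to 1000 bp off, in every library. Of 30 markers of epithelial cells, fibroblasts, mural cells and leukocytes, 19 and 20 did so in the KO libraries, against 21 and 19 in the WT libraries. All 7 mural markers were among them in each library. Of 8 epithelial markers 6 and 7 were among them in KO against 7 and 7 in WT, of 7 fibroblast markers 4 and 4 in the KO libraries against 4 and 3 in the WT libraries, and of 8 leukocyte markers 2 and 2 in KO against 3 and 2 in WT.

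RefSeq start sites (GRCm38.p6, the mm10 assembly) were matched for 4 of the 5 genes: Meis1, Meis2, Meis3 and Meox2. The 250 bases before the start site are shown for Meis1 and Meox2, where a peak of each library covered them, and for Meis2, where no peak of any library did. They are written 5′ to 3′ on the strand of the gene, with CpG sites, the positions that DNA methyltransferases act on, in capitals. They lie at chr11:19018970-19019219 (minus strand), chr12:37108290-37108539 (plus strand) and chr2:116064620-116064869 (minus strand). The Meis1 and Meis2 start sites, 19018969 and 116064619, lie inside the gene spans, which end at 19019651 and 116067537. That of Meox2 is at the end of its span, so the stretches stand at unlike places. A region of all 4 lists ended 56 bp from the Meis2 end.
Meis1: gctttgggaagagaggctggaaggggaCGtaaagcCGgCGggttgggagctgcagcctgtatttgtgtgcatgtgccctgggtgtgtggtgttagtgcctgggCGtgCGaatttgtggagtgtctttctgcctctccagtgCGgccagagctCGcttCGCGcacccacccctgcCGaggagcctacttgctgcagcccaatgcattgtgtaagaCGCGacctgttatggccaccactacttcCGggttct
Meox2: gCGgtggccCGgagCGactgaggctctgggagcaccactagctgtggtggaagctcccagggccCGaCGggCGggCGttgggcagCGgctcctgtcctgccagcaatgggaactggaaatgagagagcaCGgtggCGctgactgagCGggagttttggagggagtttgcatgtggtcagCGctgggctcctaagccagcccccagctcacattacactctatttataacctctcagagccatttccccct
Meis2: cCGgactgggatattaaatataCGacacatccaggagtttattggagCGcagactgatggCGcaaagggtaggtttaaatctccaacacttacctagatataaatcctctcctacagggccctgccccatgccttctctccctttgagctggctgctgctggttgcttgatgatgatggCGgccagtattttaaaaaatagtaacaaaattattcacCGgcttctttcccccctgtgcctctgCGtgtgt

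The Meis1 stretch held 13 CpG sites, Meox2 12 and Meis2 7, and the same stretch of Meis3 held 12. The median over 32851 RefSeq promoters was 6, with quartiles of 2 and 16, so all 4 stretches lay between the quartiles. The MEIS motif TGACAG, searched on both strands, matched none of the 4 stretches, and it matched 15.9% of all such promoters. The PBX-HOX motif TGATTGAT (0.67% of promoters), the composite PBX-MEIS motif (0.198%, which contains TGACAG) and the homeodomain core TAATTA (4.84%) matched none of the 4 either. This says only that those letters were not in these windows.

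Most chromatin listed as open at these genes was listed in every library. Of the 103 regions, 69 (67.0%) were called in all 4 lists, against 66.7% of all merged regions. Regions listed in both KO libraries and in neither WT library, here called KO-pattern, numbered 9 (8.74%), where 1.12% of all merged regions had that pattern. The opposite, WT-pattern, was found for 1 region (0.971%), where 3.04% of all regions had it. These background shares depend on list length: when the narrowest peaks were dropped until all 4 lists had 85091 peaks, 1.96% of all regions had the KO pattern and 1.96% the WT pattern, and 8 regions at the members had the KO pattern. Of the 9 KO-pattern regions, 5 lay at Meis2, 3 at Meis1 and 1 at Meox1, and 7 lay inside a member gene. The other regions were called in 3 lists (8), in 1 KO and 1 WT list (6) or in a single list (10). Over all 113056 regions these classes held 12503, 5331 and 15126. A width given below for a library is the sum over its peaks in the region, mostly 1 peak.

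**Figure D1:**
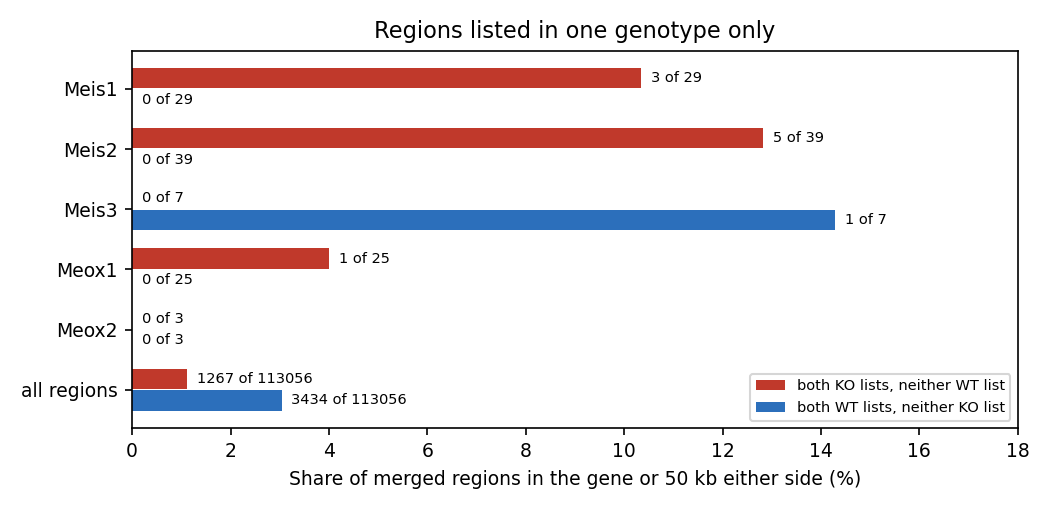
Share of merged regions listed in both KO libraries only (red) or in both WT libraries only (blue), for each gene with 50 kb on either side and for all merged regions, with the counts beside the bars. Meis2 (5 of 39) and Meis1 (3 of 29) had KO-pattern regions and 0 WT-pattern regions, while over all regions the KO pattern (1267) was less frequent than the WT pattern (3434).

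Meis2, which acts in neural crest and heart development, had 39 regions, the most of the 5 genes. It spans chromosome 2, 115861264 to 116067537 (gene identifier 17536), on the minus strand. Its regions numbered 22 in all 4 lists (56.4%), 5 of KO pattern (12.8%) and 0 of WT pattern. All 5 KO-pattern regions lay downstream of the start site, from 55.2 to 205 kb away. Exons and introns were not analysed here.

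The KO-pattern region nearest the Meis2 start site lay inside the gene at chromosome 2, 116009162 to 116009663, with peaks of 502 bp in KO replicate 1 and 418 bp in KO replicate 2. The closest WT peak was 7383 bp away. It was the one KO-pattern region of the 9 whose peaks were both above the median width of their own list, at the 55.1 and 52.3 percentile. Further into the gene, the region at 115923418 to 115923778 had peaks of 255 and 201 bp, 141 kb from the start site. The region at 115900497 to 115900749, 164 kb from the start site, had peaks of 211 and 201 bp, close to the narrowest width that any list holds, 201 bp. Its closest WT peak was 9162 bp away, the longest such gap among the 9. Peaks of 306 and 297 bp made up the region at 115883482 to 115883839, 181 kb from the start site. The last, at 115859363 to 115859726, lay 1538 bp outside the gene and had peaks of 238 and 364 bp, with a WT peak only 423 bp away in a neighbouring region of all 4 lists. These regions thus varied from a pair of peaks above the median width to pairs with 1 peak at the smallest width listed.

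**Figure D2:**
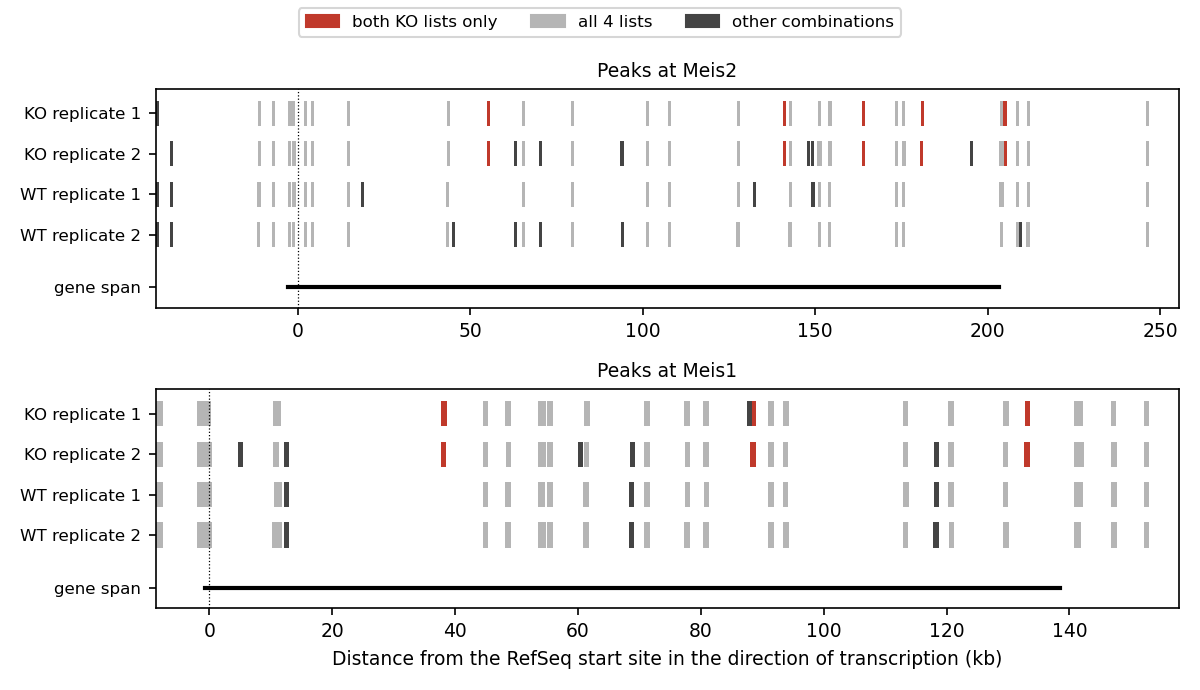
Peaks of each library at Meis2 (top) and Meis1 (bottom) by distance from the RefSeq start site in kb, in the direction of transcription, with KO libraries above WT libraries and the gene span as a black line. Peaks narrower than 0.9 kb are drawn 0.9 kb wide. Red marks the 5 and 3 regions listed in both KO libraries only, which lie 55.2 to 205 kb downstream of the Meis2 start site, the last of them outside the gene, and 38.2 to 133 kb downstream of the Meis1 start site.

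At the Meis2 start site itself no library had a peak. This RefSeq site, 116064619, lay inside the gene, whose span ends at 116067537. The closest regions lay 952 and 1866 bp upstream, at 116065571 to 116066306 and 116066485 to 116067481, and both were in all 4 lists. The first had widths of 723 and 467 bp in KO against 456 and 549 bp in WT, and the second had 991 and 515 bp in KO against 571 and 826 bp in WT. The genotypes overlapped at both. Both regions lay inside the Meis2 span, and the second ended 56 bp from its high-coordinate end. The second also overlapped the long non-coding RNA gene G630016G05Rik. The widest Meis2 region, 137 bp outside the far end of the gene at 115860149 to 115861127, measured 927 and 844 bp in KO against 790 and 956 bp in WT. At the next widest, inside the gene at 115962769 to 115963688, both KO widths (761 and 555 bp) were below both WT widths (794 and 920 bp). Of all 75395 shared regions, 14.8% were separated in this direction on quantile-normalised widths. No such share was taken for widths in bp.

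A Meis2 region present in all 4 lists differed most in width. It lay 43.6 kb from the start site, inside the gene at chromosome 2, 116020577 to 116021523. Its peaks were 899 and 938 bp wide in KO, against 401 and 355 bp in WT. The KO peaks began at 116020625 and 116020577 and ended at 116021523 and 116021514, whereas the WT peaks began at 116021052 and 116021044 and ended at 116021452 and 116021398. The KO peaks thus contained the WT peaks and extended mainly to the low-coordinate side, away from the start site. On the scale of quantile-normalised log2 width the KO minus WT difference was 1.34 (SE 0.12, limma fitted across all regions, unadjusted p = 0.000332), the smallest p of the 69 member regions. After Benjamini-Hochberg adjustment over 75395 regions it did not pass (adjusted p = 0.537, 0 regions called, 0% of those tested).

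In all, 3 of the 22 shared Meis2 regions (13.6%) had an unadjusted p under 0.05, as did 6.03% of all 75395 shared regions. Of the others, the region at 115921705 to 115922111, 143 kb from the start site, measured 407 and 318 bp in KO against 278 and 247 bp in WT (log2 difference 0.57, SE 0.16, limma adjusted p = 0.741). The third, 2.2 kb from the start site at 116062272 to 116062564, measured 253 and 268 bp in KO against 251 and 243 bp in WT (log2 difference 0.26, SE 0.09, limma adjusted p = 0.807). In both, KO exceeded WT in each library, the second by a few base pairs only. The log2 difference of 0.26 is of quantile-normalised widths (mean 8.11 in KO against 7.85 in WT) and exceeds that of the widths in bp. The base pairs covered by peaks over the whole Meis2 window were 14.5 and 14.7 kb in KO against 12.6 and 13.2 kb in WT, without overlap between the genotypes, as for 4.32% of 18917 protein-coding genes with a peak. Meis2 was chosen for its KO-pattern regions, which add to these sums in KO alone, so nothing is read from this separation. Without those 5 regions the genotypes overlapped, at 13.02 and 13.24 kb in KO against 12.63 and 13.24 kb in WT. There were 28 and 36 listed peaks in the KO libraries, against 29 and 29 in the WT libraries, so that KO replicate 2 alone was higher.

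Meis1 (gene identifier 17268) spans chromosome 11, 18880428 to 19019651, on the minus strand, and had 29 regions, of which 20 were in all 4 lists, 3 had the KO pattern (10.3%) and 0 the WT pattern. All 3 KO-pattern regions lay inside the gene. At 18885611 to 18886030, 133 kb from the start site, the peaks measured 420 and 340 bp in KO replicates 1 and 2. At 18930296 to 18930664, 88.5 kb from the start site, they measured 255 and 369 bp, and KO replicate 1 listed one more peak of 285 bp nearby, at 18930895. The third lay 38.2 kb from the start site, at 18980648 to 18980942, with narrow peaks of 201 and 272 bp. No WT peak lay closer than 2577 bp to any of these 3 regions.

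The Meis1 start site lay inside a broad region of all 4 lists, 19018679 to 19020075, which measured 1361 and 981 bp in KO against 1094 and 1197 bp in WT. KO replicate 1 listed it as 1 peak and the other libraries as 2 peaks each, whose widths were summed. The widest Meis1 region, 2131 bp outside the gene at 18876800 to 18878297 and within the long non-coding RNA gene 8430419K02Rik, measured 1498 and 1095 bp in KO against 1138 and 1210 bp in WT. The genotypes overlapped at both. Over the 20 shared regions the median log2 width difference was -0.03, and 0 had an unadjusted p under 0.05. The lowest, -0.62, was a region 8316 bp outside the gene where KO replicate 1 stood apart, with 284 and 760 bp in KO against 793 and 764 bp in WT. Covered length was 14.7 and 15.6 kb in KO against 14.8 and 14.9 kb in WT, and the lists held 25 and 31 peaks in KO, against 26 and 26 in WT. The genotypes overlapped in both measures.

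Meis3, a relative studied for hindbrain patterning in frog and fish, is a short gene at chromosome 7, 16174012 to 16186510 (gene identifier 17537), with 7 regions. Only 1 of them overlapped the gene, and 5 were in all 4 lists. The region over its start site, 16174918 to 16175684, measured 381 and 523 bp in KO against 767 and 614 bp in WT (log2 difference -0.54, SE 0.22, limma adjusted p = 0.866). Both KO widths in bp were below both WT widths there. On normalised widths, 14.8% of all 75395 shared regions were separated in this direction, and no such share was taken for widths in bp. The WT-pattern region of this family lay in the Meis3 flank, 43451 bp from the gene at 16229961 to 16230204, with peaks of 244 and 201 bp in WT. C5ar2, a complement receptor gene, was the closest protein-coding gene to it. The 2 widest regions lay within the neighbouring genes Slc8a2 (947 and 1109 bp in KO against 979 and 949 bp in WT) and Dhx34 (617 and 573 bp in KO against 600 and 615 bp in WT).

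Meox1 (gene identifier 17285) lies at chromosome 11, 101877510 to 101894354, and its window was the densest, with 25 regions or 21.4 per 100 kb, against 1.75 for Meox2 and a median of 6.72 over protein-coding genes. Of the 25, 19 were in all 4 lists and 1 had the KO pattern. That region, at 101928431 to 101928787, had peaks of 201 and 318 bp, lay 34077 bp from Meox1 and was closer to Sost, the gene of the bone protein sclerostin. The closest region to the high-coordinate gene end, 373 bp from it, measured 367 and 397 bp in KO against 403 and 414 bp in WT. No region of all 4 lists was the closest at the low-coordinate end, where KO replicate 2 (256 bp) and WT replicate 2 (219 bp) shared a peak 1313 bp inside the gene. The widest region, 46326 bp from the gene, measured 1084 and 990 bp in KO against 997 and 1020 bp in WT. The next, in the long non-coding RNA gene Gm33662, measured 1244 and 866 bp in KO against 871 and 846 bp in WT, with KO replicate 1 apart from the other libraries.

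Meox2 (gene identifier 17286), at chromosome 12, 37108540 to 37179534, had 3 regions and each was in all 4 lists. The region over its start site, 37108158 to 37109714, was the broadest of the family and nearly equal between libraries, at 1462 and 1531 bp in KO against 1538 and 1557 bp in WT. The second, 33.8 kb into the gene at 37142089 to 37142491, measured 403 and 306 bp in KO against 215 and 281 bp in WT (log2 difference 0.59, SE 0.21, limma adjusted p = 0.823). KO was above WT in each library there. The third lay 4178 bp outside the gene and measured 223 and 344 bp in KO against 328 and 290 bp in WT.

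**Figure D3:**
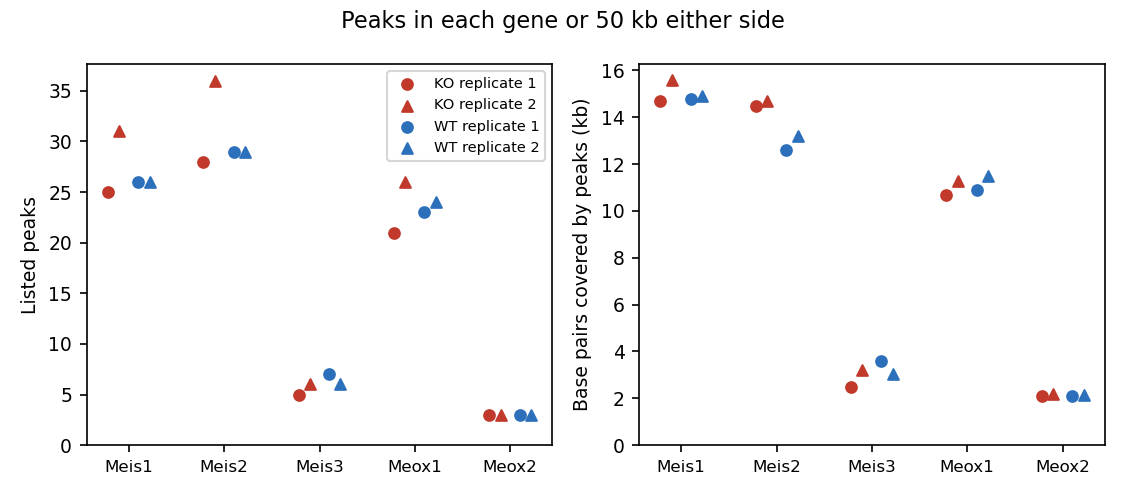
Listed peaks (left) and base pairs covered by peaks in kb (right) in each gene with 50 kb on either side, 1 point per library, KO in red and WT in blue. KO replicate 2 listed most peaks at Meis1 (31), Meis2 (36) and Meox1 (26), and covered length at Meis2 was 14.5 and 14.7 kb in KO against 12.6 and 13.2 kb in WT, with the 5 KO-pattern regions for which it was chosen included.

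Over the 5 genes together, KO lists held 82 and 102 peaks and WT lists 88 and 88, that is 92.0 ± 14.1 against 88.0 ± 0 (SD, n = 2 each). The KO libraries lay on either side of the WT libraries. Counted per 100000 peaks of the whole list, they had 96.37 and 101.1 in KO against 86.75 and 90.14 in WT (98.7 ± 3.34 against 88.4 ± 2.4, SD, n = 2 each). The 9 KO-pattern regions that bear on the choice of genes each add a peak to both KO lists and to no WT list. No test is therefore given, and nothing is read from the separation of the scaled values. The share of other genes so separated, and the scaled values without these regions, were not taken. Without KO replicate 2 the difference in peaks as listed turned to -6. The limma p-values given for widths measure only the spread between these libraries, which may be technical.

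Over the 69 regions of all 4 lists, 4 (5.8%) had an unadjusted limma p under 0.05, against 6.03% of all 75395 such regions, a share near the background. Both normalised KO widths exceeded both WT widths at 11 regions (15.9%, against 20.3% of all), and both WT widths exceeded both KO widths at 7 (10.1%, against 14.8%). The median log2 difference was 0.01, as over all regions. Without normalization it was -0.06 at the members and -0.05 over all regions. Widths in bp, given above for single regions, can therefore separate the genotypes at other regions than the normalised widths do. By gene, the median was 0.08 at Meis2, where 16 of 22 regions were above 0, and -0.03 at Meis1, where 7 of 20 were, against 53% of all 75395 regions. Whether Meis2 and Meis1 differ in this was not tested.

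**Figure D4:**
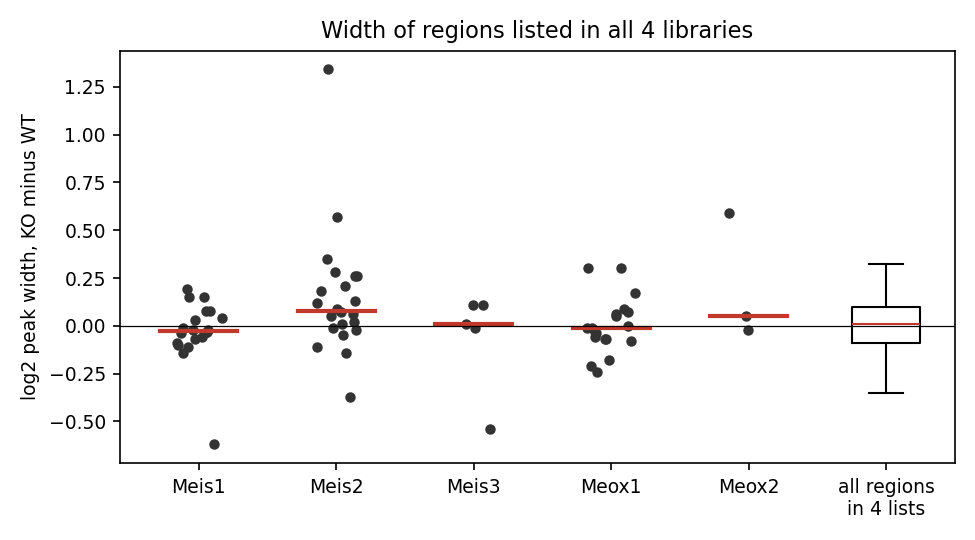
KO minus WT difference in quantile-normalised log2 peak width for each region listed in all 4 libraries (points), with the median of each gene as a red line. The box on the right gives the quartiles of all 75395 such regions with whiskers at the 5 and 95 percentiles, and the Meis2 region at 1.34 lies above them.

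The 9 KO-pattern regions were narrow, at a median of 255 bp in KO replicate 1 and 318 bp in KO replicate 2. Their median width percentile was 12.7 and 27.8 in these lists, against 13.8 and 21.6 for all KO-pattern regions and 53.2 and 65.0 for the member regions of all 4 lists. They lay 423 to 9162 bp from the closest WT peak. When peaks under the median width of each list were dropped, 3 regions at the members had the KO pattern (1.08% of all regions then had it), all at Meis2, and only 1 of them was among the 9. Without KO replicate 1, where 1 KO list suffices, the count was 14, while 5.83% of all regions had that pattern, and without KO replicate 2 it was 10, against 3.21%.

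Among 21887 protein-coding genes with the same window, 9.63% had at least 1 KO-pattern region, 0.393% (86 genes, Meis1 and Meis2 included) had at least 3, and 0.00914% (2 genes) had 5, the highest number. The 2 were Meis2 and Maml3, which had 80 regions and 1 WT-pattern region. Longer genes have longer windows and can hold more regions, and the median gene had 9. Meis1 had 12.1 and Meis2 12.7 regions per 100 kb, against an upper quartile of 11.2 over protein-coding genes. At the edge of the window, the first region left out beyond Meis1 lay 58726 bp from the gene and was of WT pattern (201 and 245 bp), and that beyond Meis2, 61233 bp away, was called in KO replicate 2 alone (228 bp). The outermost regions taken in, 13721 bp from Meis1 and 42819 bp from Meis2, were in all 4 lists.

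Related genes of the TALE class also held such regions. At 14 of them, Pbx2, Pbx3, Pbx4, Mkx and the Pknox, Tgif and Irx genes, 3 of 154 regions (1.95%) had the KO pattern and 2 (1.3%) the WT pattern, against 1.12% and 3.04% of all regions. The difference from the Meis and Meox genes was not tested. Pbx3, whose protein pairs with MEIS proteins, had 1 KO-pattern region inside the gene (371 and 294 bp in KO). Pknox2 and Tgif1, a TALE repressor of TGF-beta responses, had 1 each in their flanks, at 201 and 271 bp and at 435 and 344 bp. The WT-pattern regions lay in the flanks of Irx3 (230 and 205 bp in WT) and Irx6 (209 and 425 bp in WT). Pbx2, Pbx4, Pknox1, Tgif2, Irx1, Irx2, Irx4, Irx5 and Mkx had 0 of either pattern.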

How the data were processed

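ATAC-seq peak lists of 2 Dnmt3a KO and 2 WT libraries were used, grouped by the genotype in the labels. The authors deposited 1 list per library with chromosome, start, end and width in bp, per the file headers, and no score, p-value or read count. Tools named in the submitters' processing notes are Bowtie2, cutadapt and Picard, with the mm10 build and no versions. For the peak caller, its threshold and any transposase shift, the sources used here give nothing.

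Peaks outside chromosomes 1 to 19, X and Y, 92 and 134 in KO against 134 and 124 in WT, were dropped. Regions were merged at 1 bp of overlap, and gene spans came from GRCm38.p6. Widths, summed per region and list, were tested with limma as quantile-normalised log2 values over the 75395 regions of all 4 lists, with Benjamini-Hochberg adjustment at 0.05. Genes, lists and tests were chosen with earlier results of these data known. The text names all 5 members, each region of KO or WT pattern, those nearest a start site or gene end, the 2 widest shared regions per gene and the 3 smallest p. Beside these, the remaining Meox2 region, a Meis1 flank region, Maml3 and 1 Meis1 peak of KO replicate 1 were named after their values were seen, and related genes were named for such regions or to complete a count. Some items of the related list are not reported here. The planned permutation test of peak counts is not reported, as the choice of genes used those counts. Merging and the width test were tested on simulated data. There the width test called 40 of 100 planted log2 differences of 1 and 96 of 100 of 2, with 9 false calls. Both sizes were planted together, in normal noise with the variance that limma estimated for each region. Recovery of a lone difference in the real lists may be lower. The 0 calls of the width test therefore do not show that widths were equal. Overlap, gap, list length, width, flank, scaling, block and leaving out libraries were varied. Software was R 4.3.3 with limma 3.58.1, and Python 3.11.15 with matplotlib 3.10.9, scipy 1.17.1, pandas 2.3.3 and numpy 2.4.6.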

Additional observations from a re-analysis of the deposited data

How the results depend on the processing

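The lists hold no read counts, so depth sets an unknown limit on every absence. The 9 KO-pattern regions at the members became 8 when sharing needed an overlap of 50% of the narrower peak (1.08% of all regions then had the pattern), 8 with the widest peaks at equal list length (1.96%), 8 when absence needed a gap of 500 bp, 8 with a 10 kb flank and 7 within the gene spans. They became 3 once peaks under the median width were dropped (1.08%), and only 1 of the 9 had both peaks over the median of their lists. Leaving out each library gave 9 to 14 (1.89% to 5.83%). Of the 9, 7 were still of KO pattern at equal list length and 1 with only the wider peaks. The 1 WT-pattern region became 2 with the 50% overlap, 0 within the gene spans and 0 with the 10 kb flank, which leaves its place out, and 3 to 7 without each library (4.99% to 11.1% of all regions). That Meis3 region lost the pattern at equal list length and with only the wider peaks, where the count of 1 came from a region at Meis1 and at Meox1. The difference in peaks per library was 4 (10.3 per 100000 peaks, 10.0 at equal list length, 5.5 in the gene spans, 6.0 with the 10 kb flank), and -6 to 14 without each library. These differences include the KO-pattern regions, which add peaks in KO alone, so no KO excess is read from them. The width test called 0 member regions under each alternative, with 2 to 16 of them at an unadjusted p under 0.05 and a smallest adjusted p of 0.225 to 1. With the replicate number as a block limma called 0, with 2 at an unadjusted p under 0.05 and a smallest adjusted p of 0.668. Same-numbered libraries did not deviate together (r = -0.045 across regions), so the numbers were not taken to pair them.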

Other observations

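Regions of a single library at the Meis and Meox genes numbered 1 in KO replicate 1 and 5 in KO replicate 2, against 2 in WT replicate 1 and 2 in WT replicate 2. Over all 15126 single-list regions the shares were 14.3% and 34.1% for the KO libraries, against 32.5% and 19.1% for the WT libraries. Among the 8 regions of 3 lists, KO replicate 1 was the missing one in 6 and KO replicate 2 in 2. Over all 12503 regions of 3 lists these shares were 68.6% and 16.5%, with 6.48% and 8.42% for the WT libraries. KO replicate 1 has the shortest list of the 4. The counts at these genes are few and near those shares.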
